A study of Homo sapiens with 6 samples.

Results

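The genes described here are 36 members of the integrated stress response and the unfolded protein response, chosen as rows of the deposited count table whose gene name is on a written list of these pathways. They are 36 of the 56303 genes in the table and were compared between T24 bladder cancer cells labelled siNC and siFBXL6. By role, 26 members belong to the amino acid branch that runs through the transcription factor ATF4, and 10 belong to the branch that serves the endoplasmic reticulum (ER).

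T24 is an established human bladder carcinoma line, and all 6 libraries carry 1 batch label. The siNC group (n = 3, genotype labelled wild type) received a control siRNA, and the siFBXL6 group (n = 3, genotype labelled as a knockdown of FBXL6) siRNA against FBXL6, an F-box protein that recognises substrates for an SCF ubiquitin ligase. RNA was taken 48 h after transfection, and reads were counted per gene, with totals between 56814946 and 60968158 counts in a library. The study sequenced RNA after lowering FBXL6 to look for mechanisms by which FBXL6 might drive bladder cancer progression. Its general statement on independent replicates does not name these libraries. No source used here says of the 3 libraries of a group that they came from separate cultures, so the p-values below measure only the spread between these libraries, which may be technical. The numbers in the library labels are read here as replicates, but the study also numbers its different siRNAs against FBXL6 in this way. No source used here says which siRNA a library received, so the spread within siFBXL6 may also hold a difference between siRNAs.

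Both pathways answer stress by slowing protein synthesis and switching on genes that restore supply. In the integrated stress response, a family of kinases phosphorylates the translation factor eIF2, which lowers general translation but favours ATF4, and ATF4 then drives genes for amino acid uptake and synthesis, for charging tRNAs and for ending the response. In the unfolded protein response, sensors in the ER membrane detect misfolded protein and act through XBP1, ATF6 and the eIF2 kinase PERK to raise chaperones and the machinery that destroys misfolded protein, a capacity on which carcinoma cells with a high secretory or growth load are known to lean.

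The siRNA target was read first. FBXL6 stood at 6.19, 6.70 and 6.93 CPM (counts per 1000000, scaled by library with the trimmed mean of M-values) in siNC libraries 1 to 3 and at 6.58, 5.70 and 5.81 CPM in libraries 1 to 3 labelled siFBXL6. The groups overlapped, because the first library labelled siFBXL6 lay between siNC libraries 1 and 2. The fitted log2 fold change, siFBXL6 over siNC throughout, was -0.13 (95% interval -0.31 to 0.05, edgeR quasi-likelihood test with Benjamini-Hochberg adjustment over all genes tested, adjusted p = 0.247). Genes on the opposite strand cover 31.7% of FBXL6's exon bases, and the libraries were made with a stranded kit, but the strand setting of the counting is not given in the sources used here. The transcript count of the target therefore does not separate the groups, which are called by their labels. The study reports lower FBXL6 by qRT-PCR and Western blot in T24 cells given either of its siRNAs. No source used here ties those assays to these libraries.

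Epithelial keratins were abundant, which does not by itself identify the line. Keratins KRT7, KRT8, KRT18 and KRT19 with VIM summed to 3031, 2932 and 3017 CPM in the siNC libraries and to 2741, 2712 and 2722 CPM in those labelled siFBXL6, with KRT7 the most abundant. KRT7, KRT8 and KRT19 fell, KRT7 not without library 1 (edgeR adjusted p = 0.074) or library 3 (0.107) labelled siFBXL6. VIM held little of the sum, with a mean of 15.6 CPM in siNC and 25.4 CPM in siFBXL6, and rose (log2 fold change 0.70). The study, by contrast, reports less Vimentin protein on Western blots after FBXL6 knockdown, T24 cells included. No source used here ties those blots to these libraries. The part of these keratin and VIM transcript changes in the results below was not tested. The 5 leukocyte markers summed to 1.88 CPM or less in every library, with CD14 the most abundant by the mean over the 6 libraries and CD3E at 0 in 5 libraries, and none of the 3 that were tested passed. The 4 endothelial markers summed to between 2.53 and 4.07 CPM, with KDR the most abundant by that mean and only PECAM1 called, as higher, and the 5 fibroblast markers summed to between 34.5 and 40.2 CPM, of which COL1A1 held most and was the only one called, as lower. The 4 erythroid markers summed to 0.299 CPM or less, with ALAS2 the most abundant by that mean, HBA1 at 0 in all 6 libraries and none of them tested. Counts from mitochondrial genes were 5.82%, 6.28% and 6.29% of the total in the siNC libraries and 5.33%, 5.30% and 5.45% in those labelled siFBXL6, a difference between the groups whose part in the results was not tested. In such bulk samples, fewer cells of a type and less RNA per cell cannot be told apart.

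Most members were more abundant in the libraries labelled siFBXL6, by small amounts. All 36 passed the filter on low counts, and 30 passed the test at an adjusted p under 0.05 (edgeR), against 40.2% of the 21298 genes tested. Of these, 26 rose, against 20.5% of all genes tested, and 4 fell, against 19.8%. Of the calls, 5 were changes of at least 1.5-fold (13.9% of the members, against 7.42% of all genes tested), and 28 members had groups that did not overlap in CPM, against 48.2%. Since well counted genes pass the test more often, the 31 members with a mean of at least 10 CPM are set beside the 9887 such genes: 27 were called against 59.6%, 24 of them higher against 30.8% and 3 lower against 28.8%. Among these 31, siFBXL6 lay wholly above siNC in 22 and wholly below in 3, against 3344 and 3127 of the 9887 genes. The median log2 fold change was 0.20 over the members and -0.01 over all genes tested. The members were listed with earlier results of these data known, so these counts describe them and test nothing about the list.

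**Figure D1:**
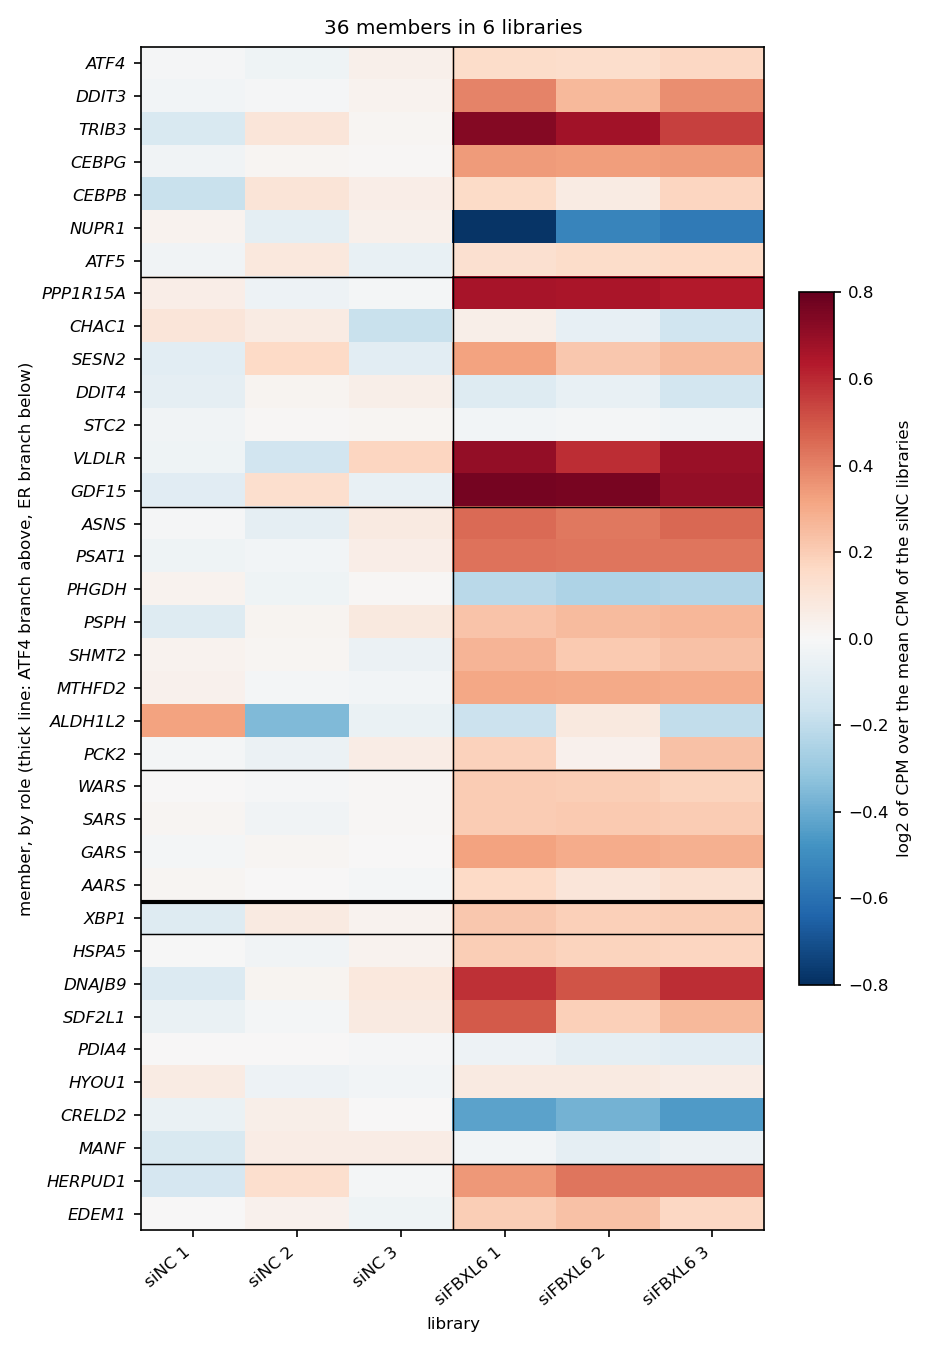
Each row is 1 of the 36 members and each column 1 of the 6 libraries, with color giving the log2 of the CPM over the mean CPM of the siNC libraries (red higher, blue lower), and black lines parting the roles. The 3 columns labelled siFBXL6 are red in most rows, with NUPR1, PHGDH and CRELD2 the deepest blue across all 3.

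Among the transcription factors of the amino acid branch, ATF4 itself moved little. It stood at 252, 248 and 261 CPM in the siNC libraries and at 281, 279 and 284 CPM in those labelled siFBXL6. All 3 libraries labelled siFBXL6 were above all 3 siNC libraries, although the gap was small beside the level. ATF4 rose by a log2 fold change of 0.15 (95% interval 0.09 to 0.21, edgeR adjusted p = 9.19e-05). Its pseudogenes in the table held counts equal to at most 1.76% of its own.

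DDIT3, which encodes the stress factor CHOP, had 33.0, 33.2 and 34.2 CPM in the siNC libraries and 44.0, 40.1 and 43.4 CPM in those labelled siFBXL6. The groups did not overlap, and the siNC values lay within a narrow band. DDIT3 rose by a log2 fold change of 0.34 (95% interval 0.26 to 0.43, edgeR adjusted p = 2.79e-08). The gene lies at chr12:57516588-57520517 in GRCh38, and MARS, which also rose, covers 28.0% of its exon bases on the opposite strand, so reads of the pair could be mixed.

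TRIB3, a pseudokinase that ATF4 and CHOP induce and that restrains ATF4 in turn, had 8.38, 9.74 and 9.23 CPM in the siNC libraries and 15.2, 14.5 and 13.3 CPM in those labelled siFBXL6. The lowest library labelled siFBXL6 was well above the highest siNC library. With a log2 fold change of 0.65 (95% interval 0.51 to 0.79, edgeR adjusted p = 1.92e-09), TRIB3 had the largest rise in this role. CEBPG, the partner with which ATF4 binds DNA as a pair, gave 104, 107 and 107 CPM in the siNC libraries and 134 CPM in each library labelled siFBXL6. The groups were apart, and CEBPG rose by a log2 fold change of 0.34 (edgeR adjusted p = 3.25e-11).

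NUPR1, a small chromatin protein induced in stress, went the other way. It had 3.32, 3.08 and 3.34 CPM in the siNC libraries and 1.89, 2.25 and 2.19 CPM in those labelled siFBXL6. Every library labelled siFBXL6 was below every siNC library, at a low level of counts. NUPR1 fell, with a log2 fold change of -0.62 (95% interval -0.89 to -0.36, edgeR adjusted p = 0.000204). It was the only member of this role to fall.

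The last 2 factors rose by less. ATF5, an ATF4 relative under the same translational control, had a log2 fold change of 0.14 (edgeR adjusted p = 0.00654), with the groups apart and opposite-strand genes over 21.2% of its exon bases. CEBPB, another dimer partner of ATF4 and CHOP, had 44.9, 54.6 and 52.8 CPM in the siNC libraries and 56.3, 53.2 and 57.1 CPM in those labelled siFBXL6. Its groups overlapped, and the first siNC library was low beside all others. The log2 fold change of CEBPB was 0.13 (edgeR adjusted p = 0.0278), and it was 0.05 without that library (edgeR adjusted p = 0.351, within a range of 0.00504 to 0.351 over the alternatives). The call was also lost without library 1 (0.11) or library 3 (0.131) labelled siFBXL6, with upper-quartile scaling (0.0597), with library size alone (0.0862) and with DESeq2 in place of edgeR (0.0827).

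The members that give feedback or act on growth and redox state held 3 of the 5 changes of at least 1.5-fold. PPP1R15A, also called GADD34, brings a phosphatase to eIF2 and so ends the response. It had 1066, 999.7 and 1016 CPM in the siNC libraries and 1622, 1618 and 1596 CPM in those labelled siFBXL6. The groups were far apart against a spread of 34.6 CPM (SD, n = 3) in siNC and 14.3 CPM (SD, n = 3) in siFBXL6. PPP1R15A rose by a log2 fold change of 0.65 (95% interval 0.59 to 0.71, edgeR adjusted p = 1.75e-19). Per length of transcript it had 332 RPKM (CPM per kilobase of exon) in siNC and 521 RPKM in siFBXL6, and by the mean over the 6 libraries (427 RPKM) it was the most abundant member.

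GDF15, a secreted stress hormone of the TGF-beta family, had 4.86, 5.67 and 4.96 CPM in the siNC libraries and 8.76, 8.73 and 8.41 CPM in those labelled siFBXL6. The groups stood clear of each other. GDF15 had the largest log2 fold change of the 36, 0.74 (95% interval 0.57 to 0.91, edgeR adjusted p = 6.48e-09). VLDLR, a lipoprotein receptor that ATF4 induces, had 3.45, 3.19 and 3.99 CPM in the siNC libraries and 5.75, 5.33 and 5.72 CPM in those labelled siFBXL6. It too was higher in every library labelled siFBXL6, with a log2 fold change of 0.66 (95% interval 0.45 to 0.87, edgeR adjusted p = 2.94e-06).

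The other 4 of this role split. SESN2, a sestrin that restrains mTORC1 when leucine is short, rose by a log2 fold change of 0.26 (edgeR adjusted p = 0.000551) with the groups apart. DDIT4, also called REDD1 and likewise a brake on mTORC1, had 267, 285 and 289 CPM in the siNC libraries and 261, 269 and 253 CPM in those labelled siFBXL6, so that the groups overlapped. DDIT4 fell, with a log2 fold change of -0.10 (edgeR adjusted p = 0.0114). Its call was lost without siNC library 2 (edgeR adjusted p = 0.053), siNC library 3 (0.0646) or library 3 labelled siFBXL6 (0.122), in a range of 5.03e-05 to 0.122 over the alternatives, and a gene on the opposite strand covers 41.2% of its exon bases. CHAC1, which degrades glutathione and is a classical ATF4 and CHOP target, averaged 3.90 CPM ± 0.394 in siNC and 3.75 CPM ± 0.276 in siFBXL6 (SD, n = 3), a log2 fold change of -0.06 (95% interval -0.28 to 0.17) that did not pass the test (edgeR adjusted p = 0.725). STC2, a secreted stanniocalcin, averaged 210.3 CPM ± 3.40 in siNC and 207 CPM ± 0.285 in siFBXL6 (SD, n = 3), and its log2 fold change of -0.02 had a narrow 95% interval of -0.08 to 0.04 (edgeR adjusted p = 0.641).

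**Figure D2:**
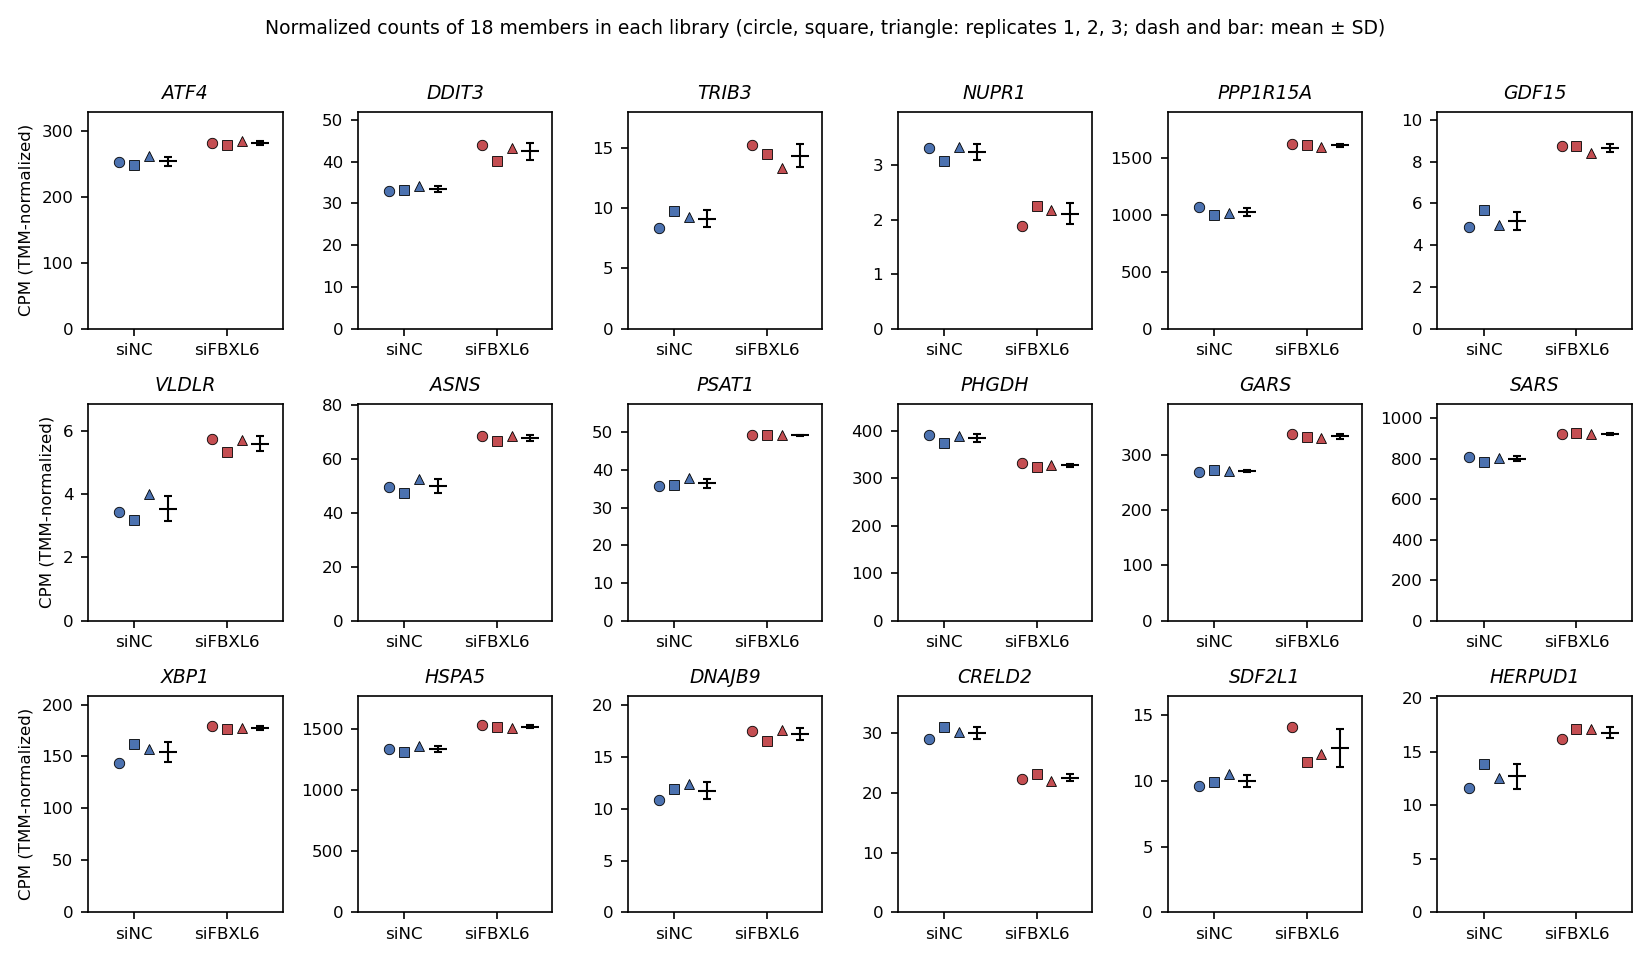
The panels show CPM in each of the 3 siNC (blue) and 3 siFBXL6 (red) libraries for 18 members, on axes that start at 0, with circles, squares and triangles for replicates 1, 2 and 3 and the mean ± SD beside them. The groups are apart in every panel, and NUPR1, PHGDH and CRELD2 are the panels in which siFBXL6 is the lower group.

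Enzymes that make amino acids and one-carbon units rose in 6 of 8 cases (75%, against 20.5% of all genes tested). Among genes averaging 10 CPM or more, 30.8% rose. ASNS, which makes asparagine and is a standard readout of ATF4, had 49.6, 47.4 and 52.5 CPM in the siNC libraries and 68.3, 66.6 and 68.5 CPM in those labelled siFBXL6. The groups were separated by several times their spread. ASNS rose by a log2 fold change of 0.44 (95% interval 0.37 to 0.52, edgeR adjusted p = 6.14e-12).

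The serine pathway did not move as one. PHGDH, which takes the first step from glycolysis into serine, had 392, 375 and 388 CPM in the siNC libraries and 331, 324 and 327 CPM in those labelled siFBXL6, where every value was the lower. PHGDH fell, with a log2 fold change of -0.23 (95% interval -0.29 to -0.17, edgeR adjusted p = 3.78e-08). PSAT1, the next enzyme, had 35.7, 36 and 37.9 CPM in the siNC libraries and 49.4, 49.2 and 49.2 CPM in those labelled siFBXL6. All of its siFBXL6 values were the higher, and it rose by a log2 fold change of 0.43 (95% interval 0.35 to 0.51, edgeR adjusted p = 3.31e-11). PSPH, which takes the last step, rose by a log2 fold change of 0.25 (edgeR adjusted p = 4.97e-05) with the groups apart, and a pseudogene in the table held up to 13.2% as many counts as PSPH. Thus the first enzyme of the pathway fell while the second and the third rose.

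In the mitochondrion, SHMT2 splits serine into glycine and a one-carbon unit, and MTHFD2 oxidises that unit. MTHFD2 had 102, 97.8 and 97.7 CPM in the siNC libraries and 123, 122 and 122 CPM in those labelled siFBXL6. Its groups did not overlap, and it rose by a log2 fold change of 0.30 (95% interval 0.24 to 0.37, edgeR adjusted p = 5.64e-10), with opposite-strand genes over 33.2% of its exon bases. SHMT2 rose by a log2 fold change of 0.24 (edgeR adjusted p = 6.94e-07), again without overlap. ALDH1L2, which releases the unit as carbon dioxide, was counted at a low level, 2.15 CPM ± 0.505 in siNC and 2.02 CPM ± 0.220 in siFBXL6 (SD, n = 3), and its log2 fold change of -0.09 had a wide 95% interval of -0.42 to 0.24 (edgeR adjusted p = 0.71). PCK2, the mitochondrial enzyme that makes phosphoenolpyruvate, had 24.6, 24.1 and 25.9 CPM in the siNC libraries and 28.2, 25.4 and 29.2 CPM in those labelled siFBXL6. The second library labelled siFBXL6 lay inside the siNC range, and PCK2 rose by a log2 fold change of 0.15 (edgeR adjusted p = 0.0157). Its call was lost without siNC library 2 (edgeR adjusted p = 0.0853), library 1 labelled siFBXL6 (0.0724) or library 3 labelled siFBXL6 (0.138) and with DESeq2 in place of edgeR (0.0516), in a range of 0.00291 to 0.138 over the alternatives.

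The promoters of some members hold the sequence that ATF4 and C/EBP factors are known to bind together, and those of CEBPG and ASNS are printed as examples, chosen after their values were seen. RefSeq promoters (GRCh38.p14, 250 bases before to 50 after a start) were found for 32 of the 36 members, 4 of them by their newer names, and NUPR1, PSPH, SHMT2 and ALDH1L2 had no entry. The letters TGATGNAA on either strand, where N is any base, occur in 3.62% of all 35116 promoters and in those of 5 of the 22 members of the amino acid branch with an entry, namely CEBPG, CHAC1, ASNS, GARS and AARS. Here and for the other motifs below, the share is over promoter entries, while a member counts if any of its entries matches. A gene with several entries thus has more chances, so the share and the count are unlike measures. The stretches below run 5′ to 3′ on the gene's strand, with the match in capitals. That of CEBPG is chr19:33373983-33374112 on the plus strand, 130 to 1 bases before the downstream of its starts and inside an intron of transcripts from the upstream one, and that of ASNS is chr7:97872458-97872487 on the minus strand, 79 to 50 bases before a start and inside the first exon of a longer annotated transcript.
CEBPG: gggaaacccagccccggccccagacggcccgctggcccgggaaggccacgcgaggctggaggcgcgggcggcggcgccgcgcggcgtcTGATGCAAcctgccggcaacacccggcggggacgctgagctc
ASNS: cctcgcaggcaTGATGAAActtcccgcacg
A match describes these letters only, and CHAC1, which holds one 209 bases before a start and inside the annotated gene, did not pass the test. The CRE letters TGACGTCA, found in 1.85% of promoters, occur among the members in PPP1R15A, 58 bases before the start of its entry. In the annotation of the count table PPP1R15A begins nearer to the match, at 48872392.

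The 4 aminoacyl-tRNA synthetases among the members, which load amino acids onto tRNAs, all rose. GARS, for glycine, had 269, 274 and 272 CPM in the siNC libraries and 339, 333 and 331 CPM in those labelled siFBXL6. SARS, for serine, had 809, 784 and 803 CPM in the siNC libraries and 919, 924 and 920.1 CPM in those labelled siFBXL6. WARS, for tryptophan, had 108, 107 and 108 CPM in the siNC libraries and 124, 123 and 122 CPM in those labelled siFBXL6. In each of these genes, all libraries labelled siFBXL6 were above all siNC libraries and the spread within a group was small. The log2 fold changes were 0.30 for GARS (edgeR adjusted p = 1.52e-10), 0.21 for SARS (edgeR adjusted p = 1.12e-07) and 0.19 for WARS (edgeR adjusted p = 2.80e-06). AARS, for alanine, rose least, by a log2 fold change of 0.13 (edgeR adjusted p = 0.000534), also without overlap.

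These synthetases were set beside the rest of their family. The counts for this and every further list stand against all genes tested, of which 20.5% rose and 19.8% fell with a median of -0.01, and against those that averaged 10 CPM or more, of which 30.8% rose and 28.8% fell. The lists were chosen with earlier results of these data known, so these counts describe a list and test nothing about it. With 8 further synthetases listed as ATF4 targets, 12 synthetases in the ATF4 lists were tested and 12 rose, with log2 fold changes from 0.13 to 0.54 and a median of 0.22. Of 8 cytosolic synthetase genes outside those lists, DARS (log2 fold change 0.21) and RARS (0.12) rose, FARSA fell (-0.15) and 5 did not pass the test, with a median of 0.04, and 2 genes passed as lower with upper-quartile scaling or library size alone. The difference between the lists was not tested. The largest rise among the synthetases was that of LARS, for leucine, with 136, 134 and 132 CPM in the siNC libraries and 193, 198 and 194 CPM in those labelled siFBXL6. The groups of LARS were far apart, with a log2 fold change of 0.54 (edgeR adjusted p = 2.19e-16).

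One-carbon enzymes outside the members were called in both directions. Of 9 such genes tested, only MTHFD2L, a mitochondrial relative of MTHFD2, rose, with 5.80, 5.70 and 5.96 CPM in the siNC libraries and 9.46, 8.64 and 8.60 CPM in those labelled siFBXL6 (log2 fold change 0.61, edgeR adjusted p = 1.01e-07). Of the 4 that fell, SHMT1, MTHFD1 and TYMS, which serve the cytosolic cycle and thymidylate synthesis, had log2 fold changes of -0.16, -0.14 and -0.08. The call of SHMT1 was lost without library 2 labelled siFBXL6 (edgeR adjusted p = 0.0671, the highest in a range from 0.00225 over the alternatives), and 2 genes of the list were called lower in that fit. The call of TYMS (edgeR adjusted p = 0.0458) was lost in 8 of the 13 alternatives, in a range of 0.00977 to 0.334. The median over the 9 genes was -0.08, while the 8 enzymes among the members had a median of 0.24, and the difference between these medians was not tested.

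**Figure D3:**
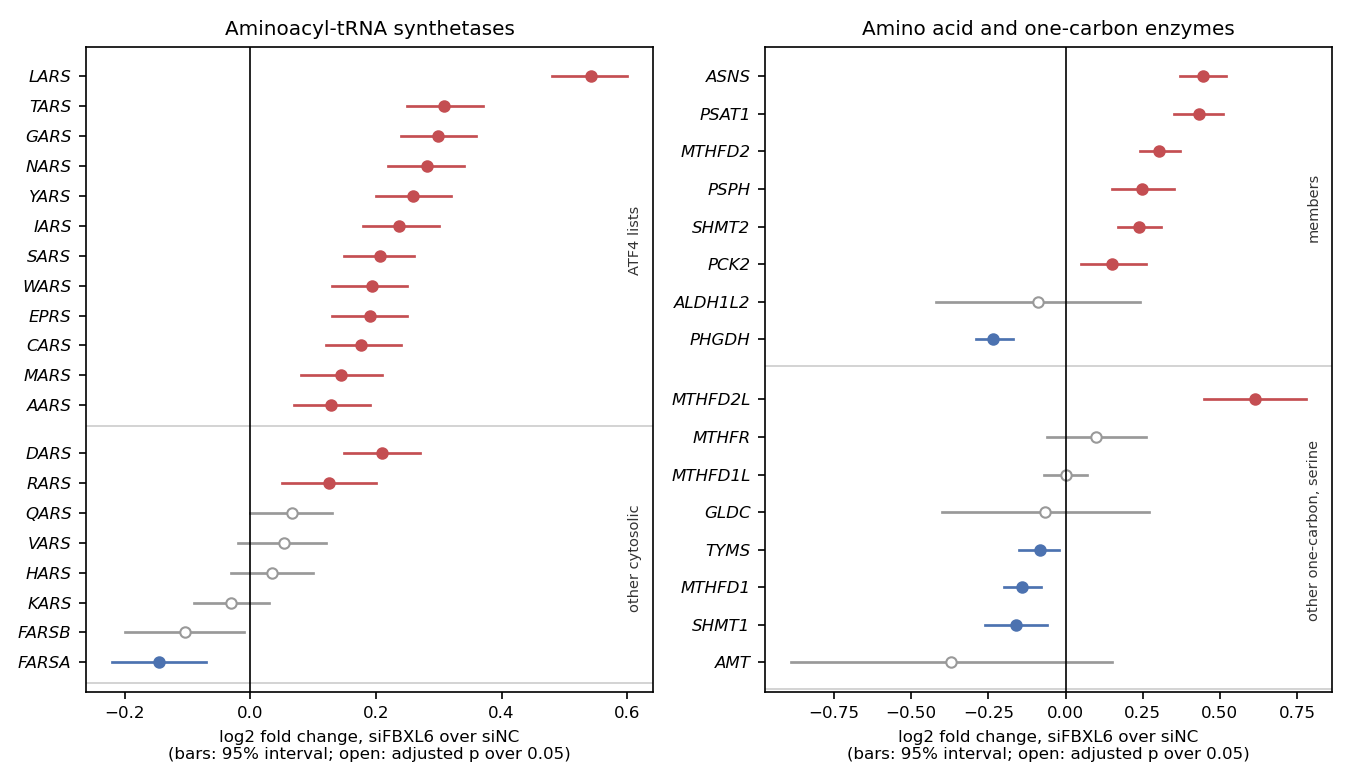
The plots give the log2 fold change, siFBXL6 over siNC, with its 95% interval for the synthetases (left) and for amino acid and one-carbon enzymes (right), filled where the adjusted p was under 0.05 and open where it was not. The 12 synthetases of the ATF4 lists lie right of 0, and PHGDH lies left of 0 below the other member enzymes.

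In the ER branch, the transcription factor and the main chaperone both rose by small amounts. XBP1, whose transcript the ER sensor IRE1 splices into its active form, had 144, 162 and 157 CPM in the siNC libraries and 179.6, 176 and 177 CPM in those labelled siFBXL6. The groups were apart, with the first siNC library the lowest. XBP1 rose by a log2 fold change of 0.20 (95% interval 0.13 to 0.27, edgeR adjusted p = 1.37e-05), and counts per gene do not show which splice form was present. HSPA5, the ER chaperone BiP that holds the sensors inactive, had 1334, 1312 and 1365 CPM in the siNC libraries and 1532, 1516 and 1509 CPM in those labelled siFBXL6. Every library labelled siFBXL6 was the higher, and HSPA5 rose by a log2 fold change of 0.18 (95% interval 0.13 to 0.24, edgeR adjusted p = 6.43e-07). It had 342 RPKM in siNC and 389 RPKM in siFBXL6, and by the mean over the 6 libraries (365 RPKM) only PPP1R15A among the members was more abundant, though not in siNC.

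CRELD2, a secreted ER stress protein, moved opposite to HSPA5. It had 29.1, 31.1 and 30.2 CPM in the siNC libraries and 22.4, 23.2 and 22.1 CPM in those labelled siFBXL6. All libraries labelled siFBXL6 were below all siNC libraries. CRELD2 fell, with a log2 fold change of -0.42 (95% interval -0.52 to -0.33, edgeR adjusted p = 4.30e-09), and was the only ER branch member to do so at this threshold.

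HSPA5, XBP1 and CRELD2 are shown because their promoters share the ER stress response element while their transcripts moved in opposite directions. Its letters, CCAAT followed after any 9 bases by CCACG, on either strand, occur in 0.077% of all promoters and, among the 32 members with an entry, in those of these 3 alone, beginning 66, 52 and 80 bases before the start of the entry. A second form, ATTGG followed after any 1 base by CCACG, on either strand, occurs in 0.054% of all promoters and in SDF2L1, HYOU1 and HERPUD1, and HERPUD1 also holds the TGATGNAA letters. No match overlapped one of another motif. The stretches are chr9:125241384-125241513 on the minus strand for HSPA5 (170 to 41 bases before the start), chr22:28800600-28800679 on the minus strand for XBP1 (110 to 31), chr22:49918504-49918633 on the plus strand for CRELD2 (130 to 1) and chr16:56931942-56932071 on the plus strand for HERPUD1 (200 to 71). In the annotation of the count table CRELD2 begins further upstream, at 49918167, so that its stretch lies inside the gene, and HERPUD1 begins at 56932048, inside its stretch and downstream of both matches. Capitals mark the fixed bases of the elements, which lie on the opposite strand in CRELD2, and in HERPUD1 the first capitals are the TGATGNAA match, read on the opposite strand.
HSPA5: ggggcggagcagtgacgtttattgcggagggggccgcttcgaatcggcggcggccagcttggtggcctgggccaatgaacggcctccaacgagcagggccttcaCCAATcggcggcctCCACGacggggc
XBP1: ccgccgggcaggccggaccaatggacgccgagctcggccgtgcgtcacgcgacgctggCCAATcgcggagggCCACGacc
CRELD2: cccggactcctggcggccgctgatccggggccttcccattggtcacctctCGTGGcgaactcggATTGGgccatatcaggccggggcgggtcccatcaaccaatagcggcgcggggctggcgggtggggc
HERPUD1: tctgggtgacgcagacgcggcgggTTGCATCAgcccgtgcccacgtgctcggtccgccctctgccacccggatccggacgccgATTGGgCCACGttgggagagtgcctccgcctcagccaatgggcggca
The capitals in CRELD2 are thus those of HSPA5 and XBP1 read backwards on the other strand, and they describe letters, not binding.

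The other folding genes of the ER branch ranged from a clear rise to values that did not pass the test. DNAJB9, a co-chaperone of BiP that XBP1 induces, had 10.8, 11.9 and 12.4 CPM in the siNC libraries and 17.5, 16.5 and 17.6 CPM in those labelled siFBXL6. It was higher in every library labelled siFBXL6 and had the largest rise of the branch, a log2 fold change of 0.56 (95% interval 0.43 to 0.68, edgeR adjusted p = 4.23e-09). SDF2L1, which works with BiP and its J proteins, had 9.64, 9.89 and 10.5 CPM in the siNC libraries and 14.1, 11.4 and 12.0 CPM in those labelled siFBXL6. The groups did not overlap, but the first library labelled siFBXL6 stood above the other two, and SDF2L1 rose by a log2 fold change of 0.32 (95% interval 0.17 to 0.47, edgeR adjusted p = 0.000571).

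The other 3 members of this role, all abundant, did not pass the test. PDIA4, a protein disulfide isomerase, averaged 483 CPM ± 2.05 in siNC and 461 CPM ± 7.99 in siFBXL6 (SD, n = 3), with groups that did not overlap and a log2 fold change of -0.07 (95% interval -0.12 to -0.01, edgeR adjusted p = 0.0589). Its adjusted p ran from 0.00659 to 0.24 over the alternatives and PDIA4 passed as lower without siNC library 1 (0.025), with upper-quartile scaling (0.0163), with library size alone (0.00659) and with DESeq2 in place of edgeR (0.0213). HYOU1, an ER chaperone of the Hsp110 family, averaged 283 CPM ± 11.1 and 297 CPM ± 1.78 (log2 fold change 0.07, edgeR adjusted p = 0.0795), and MANF, a secreted cofactor of BiP, averaged 103 CPM ± 7.36 and 99.2 CPM ± 1.55 (log2 fold change -0.05, edgeR adjusted p = 0.339). Without siNC library 1, HYOU1 passed as higher with a log2 fold change of 0.10 (edgeR adjusted p = 0.0015, in a range of 0.0015 to 0.297) and MANF as lower with -0.11 (0.00345, in a range of 0.00345 to 0.791).

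Both members that remove misfolded protein rose. HERPUD1, a membrane scaffold of the degradation complex, had 11.6, 13.9 and 12.6 CPM in the siNC libraries and 16.2, 17.1 and 17.1 CPM in those labelled siFBXL6. EDEM1, which marks misfolded glycoproteins by trimming their mannose, had 24.5, 25.1 and 23.9 CPM in the siNC libraries and 28.1, 28.9 and 27.4 CPM in those labelled siFBXL6. Neither gene had overlapping groups, and the log2 fold changes were 0.40 for HERPUD1 (edgeR adjusted p = 3.96e-06) and 0.20 for EDEM1 (edgeR adjusted p = 0.000665).

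**Figure D4:**
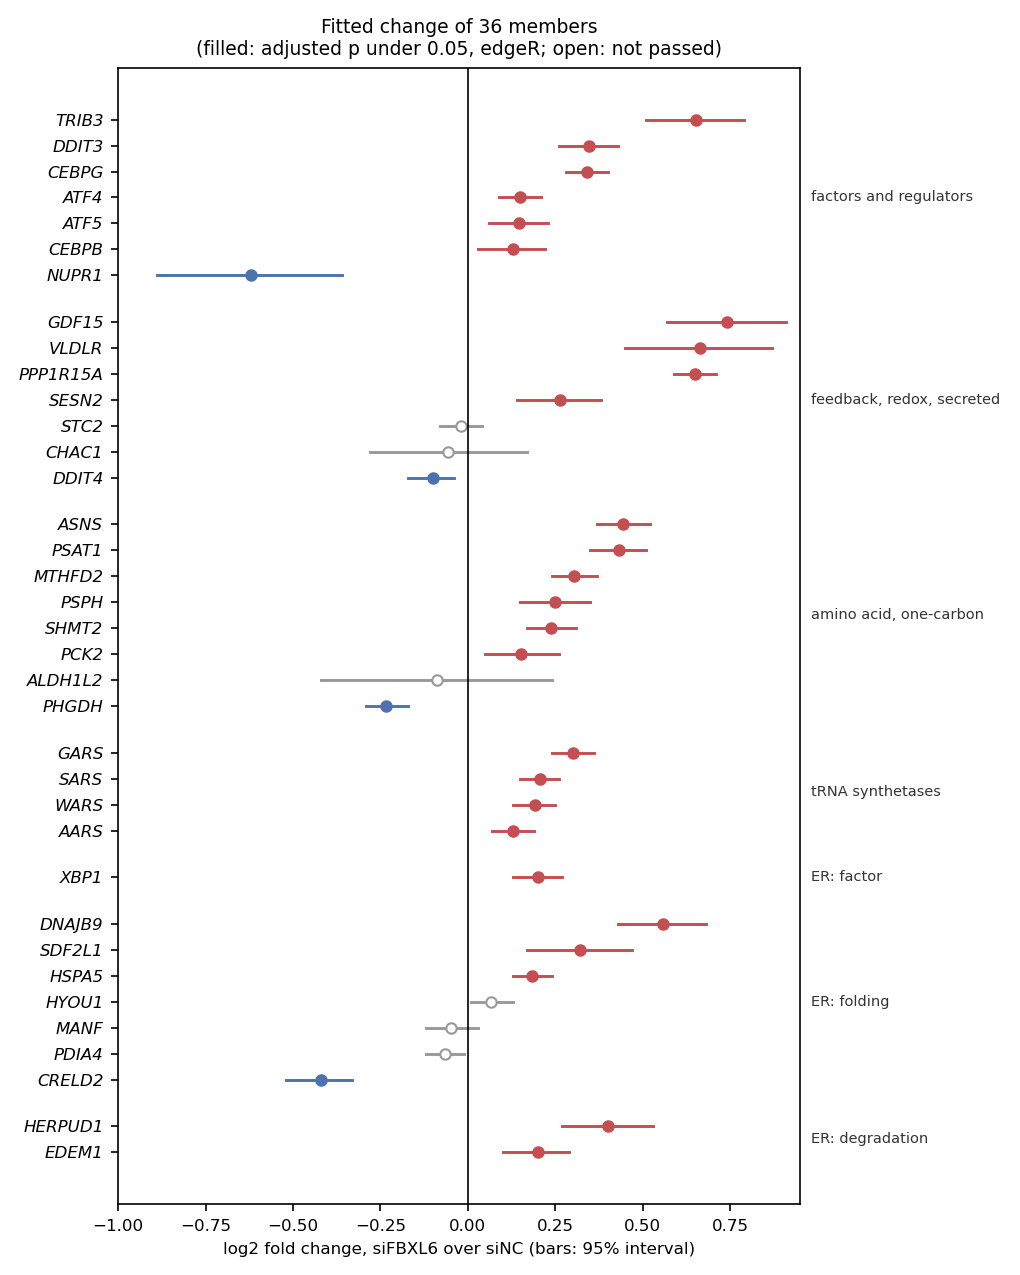
For each of the 36 members, grouped by role, the point is the fitted log2 fold change, siFBXL6 over siNC, and the bar its 95% interval. Filled red points (26) rose, filled blue points (4) fell and open points (6) did not pass the test.

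Set apart, the branches had similar medians. In the amino acid branch, 20 of 26 members rose (76.9%, against 20.5% of all genes tested), 3 fell (NUPR1, DDIT4 and PHGDH, 11.5% against 19.8%) and 3 did not pass the test, with a median log2 fold change of 0.22. Of its 21 members with a mean of at least 10 CPM, 85.7% rose against 30.8% of such genes, and 9.52% fell against 28.8%. The ER branch had 6 of 10 members that rose, CRELD2 that fell and 3 that did not pass the test, with a median of 0.19. All 10 had a mean of at least 10 CPM, and their 70% called stands against 59.6% of such genes, with 60% higher against 30.8% and 10% lower against 28.8%. This lower share rests on 1 gene, and 2 members were called lower with DESeq2, upper-quartile scaling or library size alone and 3 without siNC library 1. All 5 members changed by at least 1.5-fold, namely GDF15, VLDLR, TRIB3, PPP1R15A and NUPR1, belong to the amino acid branch. Among members averaging 10 CPM or more, 2 of 21 in the amino acid branch and 0 of 10 in the ER branch changed so. DNAJB9 of the ER branch, at 1.47-fold, lay just under that threshold. Against the siNC mean, the median of the amino acid branch was -0.015, -0.003 and 0.010 on the log2 scale in the siNC libraries and 0.216, 0.209 and 0.233 in those labelled siFBXL6. For the ER branch the medians were -0.053, 0.028 and 0.015 in the siNC libraries and 0.196, 0.185 and 0.169 in those labelled siFBXL6. In both branches each library labelled siFBXL6 was above each siNC library, and the difference between the branches was not tested.

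Upstream of ATF4, the kinases and their regulators were mixed. Of 9 genes, 4 rose and 2 fell, with a median log2 fold change of 0.09, and 2 of these genes, EIF2AK3 and DNAJC3, also stand on lists described below. EIF2AK3, which encodes PERK, had 30.9, 31.1 and 32.0 CPM in the siNC libraries and 41.4, 41.6 and 40.9 CPM in those labelled siFBXL6, and its rise of 0.40 on the log2 scale was the largest (edgeR adjusted p = 4.64e-10). DNAJC3, an inhibitor of PERK, rose (log2 fold change 0.29), while OMA1, the protease that relays mitochondrial stress, fell (-0.30), as did the double-stranded RNA kinase gene EIF2AK2 (-0.13). Of 12 genes for eIF2, its exchange factor eIF2B and its phosphatases, 4 rose and 1 fell, with a median of 0.01. The share that rose was 33.3%, against 30.8% of the genes averaging 10 CPM or more, as all 12 did. PPP1R15B, the constitutive counterpart of PPP1R15A, rose (0.18), EIF2B2 rose (0.17) and the catalytic subunit gene PPP1CC fell (-0.28).

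The ER stress sensors and their proteases held both a strong rise and a strong fall. ERN1, which encodes IRE1, had 17.5, 18.5 and 16.7 CPM in the siNC libraries and 29.9, 30.1 and 30.2 CPM in those labelled siFBXL6. The groups were far apart, and ERN1 rose by a log2 fold change of 0.78 (edgeR adjusted p = 7.13e-15). MBTPS1, a protease that releases ATF6, rose by 0.47 on the log2 scale (edgeR adjusted p = 5.26e-13), and CREB3L1, an ER-tethered factor cut by the same protease, fell, with a log2 fold change of -0.80 (edgeR adjusted p = 0.000369) at under 2 CPM. Of the 9 genes of this list, 5 rose and 1 fell, with a median of 0.36, and ATF6 itself had a log2 fold change of 0.05 that did not pass the test (edgeR adjusted p = 0.308).

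Most of the other ATF4 targets rose. Of 28 listed, 27 were tested, 20 rose and 3 fell, with a median log2 fold change of 0.20, and 8 of those that rose are synthetases already counted above. FGF21 was at 0 counts in 5 libraries and was not tested. ADM2, a secreted peptide, had 1.78, 1.78 and 1.39 CPM in the siNC libraries and 3.32, 3.25 and 4.10 CPM in those labelled siFBXL6, the largest rise of the list at a log2 fold change of 1.10 (edgeR adjusted p = 8.41e-08). SLC1A4, a transporter of neutral amino acids, had 4.87, 4.60 and 5.68 CPM in the siNC libraries and 8.67, 9.37 and 9.89 CPM in those labelled siFBXL6, with a log2 fold change of 0.88 (edgeR adjusted p = 3.17e-10). The 3 that fell were ATF3, a stress factor that ATF4 and CHOP are known to raise (log2 fold change -0.30), the related factor JDP2 (-0.22) and ALDH18A1, an enzyme of proline synthesis (-0.24).

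Beyond the ER branch members, most calls were higher, and chaperones were called in both directions. Of 17 other genes of ER-associated degradation, 12 rose and 0 fell by edgeR (0 also at an unadjusted p under 0.05 and by DESeq2, but 1 with upper-quartile scaling or library size alone), with a median log2 fold change of 0.24. The largest rise, of 0.60 on the log2 scale, was that of SELENOS, a selenoprotein of the complex that exports misfolded protein, with 57.9, 61.7 and 59.8 CPM in the siNC libraries and 89.8, 90.1 and 91.4 CPM in those labelled siFBXL6. UBE2J1, a ubiquitin-conjugating enzyme (log2 fold change 0.37), and SEL1L, the scaffold of the ligase complex (0.33), followed. Among 18 other chaperones and folding enzymes, 10 rose, with HSPA13 (0.40), DNAJC10 (0.39) and DNAJC3 the largest, and 4 abundant ones fell, namely HSP90B1 (-0.09), CALR (-0.18), PDIA3 (-0.18) and P4HB (-0.09), for a median of 0.11. The call of P4HB was lost without library 2 (edgeR adjusted p = 0.0655) or library 3 (0.066) labelled siFBXL6, and 5 were called lower with upper-quartile scaling or library size alone. Of 20 genes of ER translocation, signal peptidase and trafficking, 10 rose and 0 fell by edgeR (0 by DESeq2, but 1 at an unadjusted p under 0.05 and 1 without siNC library 1), with a median of 0.10 and LMAN1, a cargo receptor for glycoproteins (0.66), SSR3, a subunit of the translocon-associated complex (0.45), and SEC23B, a coat protein (0.39), in front.

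**Figure D5:**
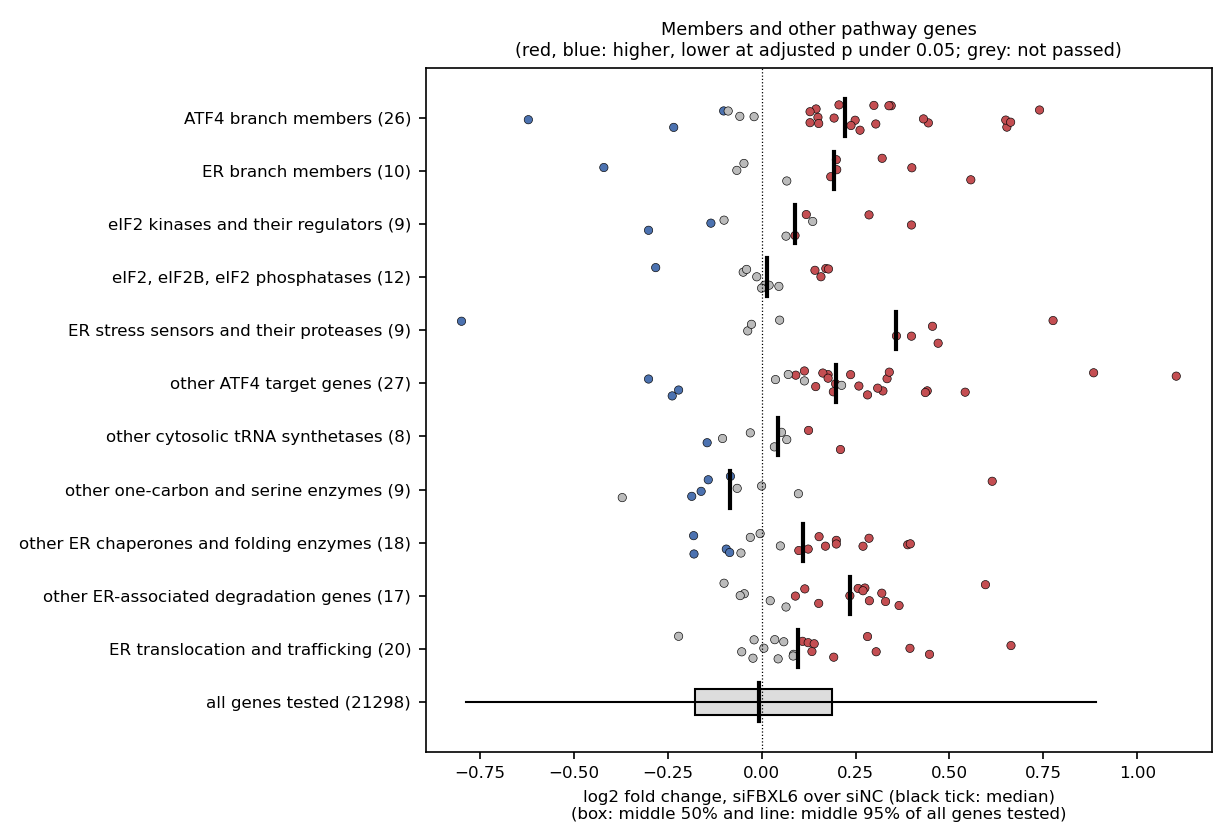
Each point is the log2 fold change, siFBXL6 over siNC, of 1 gene of the 2 branches or of 9 further pathway lists, red or blue where it rose or fell at an adjusted p under 0.05, with a black tick at the median, and the box and line below show the middle 50% and 95% of all genes tested. The medians of both branches, of the ER sensors, of the other ATF4 targets and of the degradation genes lie between 0.19 and 0.36, and those of eIF2 and its partners and of the other synthetases lie near 0.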

How the data were processed

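The authors deposited 1 table of read counts per gene for 6 libraries, without normalization. The study's methods name Trimmomatic, HISAT2 and featureCounts on GRCh38, while the submitters' processing notes list fastp 0.23.0, STAR, featureCounts and Subread 1.5.1, so trimmer and aligner are uncertain. Libraries were made with a stranded kit, but the annotation release and strand setting are not given in the sources used here. From these counts, genes were filtered with filterByExpr (21298 kept), scaled with TMM and tested with edgeR 4.0.16 (R 4.3.3, limma 3.58.1) on group alone, with Benjamini-Hochberg adjustment. RPKM used the table's exon lengths. The steps were tested on simulated data. Members and lists were chosen with earlier results of these data known. Values in every library are given for FBXL6, ATF4, DDIT3, TRIB3, ASNS, XBP1, HSPA5 and the 3 called members of each role with the largest absolute log2 fold change, and up to 3 called genes of each pathway list are named by the same measure. CEBPG, CEBPB, DDIT4, PHGDH and PCK2 are given in every library, and EIF2AK2, ATF6, ATF3, JDP2, ALDH18A1, MTHFD1, TYMS, HSP90B1, CALR, PDIA3 and P4HB are named, because of their values. One pathway gene picked by that measure is neither reported here nor labelled in a figure, and is left out of the one-carbon plot. Alternatives were DESeq2 1.42.0, other scalings, other count filters, the replicate number as a block and each library left out.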

Additional observations from a re-analysis of the deposited data

How the results depend on the processing

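Over 13 alternatives, the 36 members gave 468 fitted values, of which 448 kept their direction and their side of the threshold, 13 lost a call (CEBPB, DDIT4 and PCK2), 6 gained one (PDIA4, HYOU1 and MANF) and 1 reversed: the log2 fold change of ALDH1L2, never called, was 0.10 without siNC library 1, and from -0.24 to 0.10 with a library left out. Of 44 other named genes, TYMS lost its call in 8 alternatives, P4HB and KRT7 in 2 each and SHMT1 in 1, and of 234 counts over the pathway lists 228 stayed within 1.5 times. Members called ran from 27 to 32, and 28 were called by both edgeR and DESeq2, of 30 and 29. The count of ER branch members called lower was 2 with DESeq2, with upper-quartile scaling and with library size alone, and 1 to 3 with a library left out. The median log2 fold change of the ATF4 branch was 0.202 with upper-quartile scaling and 0.200 with library size alone, and 0.207 to 0.229 with a library left out. With the scaling by library size alone, 45.1% of all calls were higher, against 50.9%. The cause of these shifts was not tested. Same-numbered libraries did not deviate together (correlations of -0.04, 0.01 and -0.00 over 16651 genes). This cannot tell whether they were prepared as pairs, which no source used here states. With the replicate number as a block, 30 members and 8408 genes were called, against 8569 genes without it. Counting error limits ALDH1L2, NUPR1, VLDLR and CHAC1 most, since these members had the fewest counts, down to 104 in a library.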
